A study of Sus scrofa with 8 samples.

Results

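CD antigens are cell surface proteins that carry a number of the cluster of differentiation system. The genes described here are those whose array symbol is CD, a number and at most 1 closing letter, with CD2, CD3E, CD8A, CD14, CD68, CD74, CD163 and CD247 left out. This rule found 55 probe sets of 33 genes among 23999 probe sets without controls, and all 33 symbols were found in the Sscrofa11.1 RefSeq gene table. Dim probe sets were kept as members: 36 probe sets of 23 genes were bright enough to be tested, and 19 probe sets, which include every probe set of 10 genes, were not. CD5L met the rule by its spelling, although its product is a protein that macrophages secrete, and it is described apart from the membrane antigens.

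Liver RNA was hybridized to the Affymetrix porcine array, 1 array per animal. The 4 Korean native pigs (KNP) were aged 7 months and the 4 Yorkshire pigs (YS) 6 months, and both breeds were raised alike, with no treatment named and tissue taken at the tip of the largest liver lobe. Each difference is therefore one of breed and age together. Values are intensities per probe set as the authors deposited them, with no detection call.

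Most CD antigens were defined with antibodies on blood leukocytes, and many of them are not limited to these cells. CD3 chains, CD4 and CD8 define T cells, CD79 B cells, and CD40, CD80, CD83 and CD86 the cells that present antigen. The tetraspanins CD9, CD63, CD81, CD82 and CD151 and the complement regulators CD46, CD55 and CD59 occur on many kinds of cells. In liver, resident macrophages, lymphocytes and endothelium line the sinusoids between the plates of hepatocytes. In RNA of whole tissue, fewer cells of a type and less RNA per cell cannot be told apart.

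The arrays were alike in median intensity, from 152 to 179. Actin signal at the 3' end over that at the 5' end did not overlap between the breeds. It ran from 2.68 to 6.45 in KNP and from 8.39 to 11.8 in YS. The same ratio for GAPDH overlapped, from 2.3 to 3.77 in KNP and from 3.07 to 4.05 in YS. The geometric mean of 9 spiked controls did not overlap, from 2750 to 4230 in KNP and from 5170 to 7650 in YS. All 11 hepatocyte markers on the array were tested, and 7 of them were called lower in KNP and 0 higher, against 0.611% and 0.424% of all probe sets tested. Their median difference was −0.54 (log2), or −0.03 with quantile normalization. With quantile normalization none of the 11 was called. Bright probe sets differed as a body: the median difference was −0.07 (log2) at a mean log2 intensity of 12 to 13 and −0.22 at 13 to 14, steps that hold 4 and 1 of the tested members. The part of these array differences in the results was not tested.

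None of the 36 tested CD probe sets passed the test between the breeds. The test was limma on log2(intensity + 16) over 14399 probe sets with Benjamini-Hochberg adjustment, a threshold of 0.05 on the adjusted p, and differences given as KNP minus YS (log2) with their standard error (SE). In all, 0.424% of probe sets tested were called higher in KNP and 0.611% lower, and at these rates 36 probe sets hold few calls. At an unadjusted p under 0.05, 2 members were higher (both of CD82) and 2 lower (both of CD47), 5.56% in each direction, against 7.07% and 8.06% of all probe sets tested. The smallest adjusted p of a member was 0.121, for CD82.

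The members' differences ran from −0.70 to 0.55 with a median of 0.0060, against a median of −0.0086 over all probe sets tested. The mean was higher in KNP for 18 and higher in YS for 18. The unadjusted 95% interval lay within a 2-fold change either way, that is within ±1 on the log2 scale, for 24 of 36 members (66.7%, against 74.4% of all probe sets tested), so for 12 members a 2-fold difference in at least 1 direction was not excluded by its interval. The SE ran from 0.14 to 0.42.

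**Figure D1:**
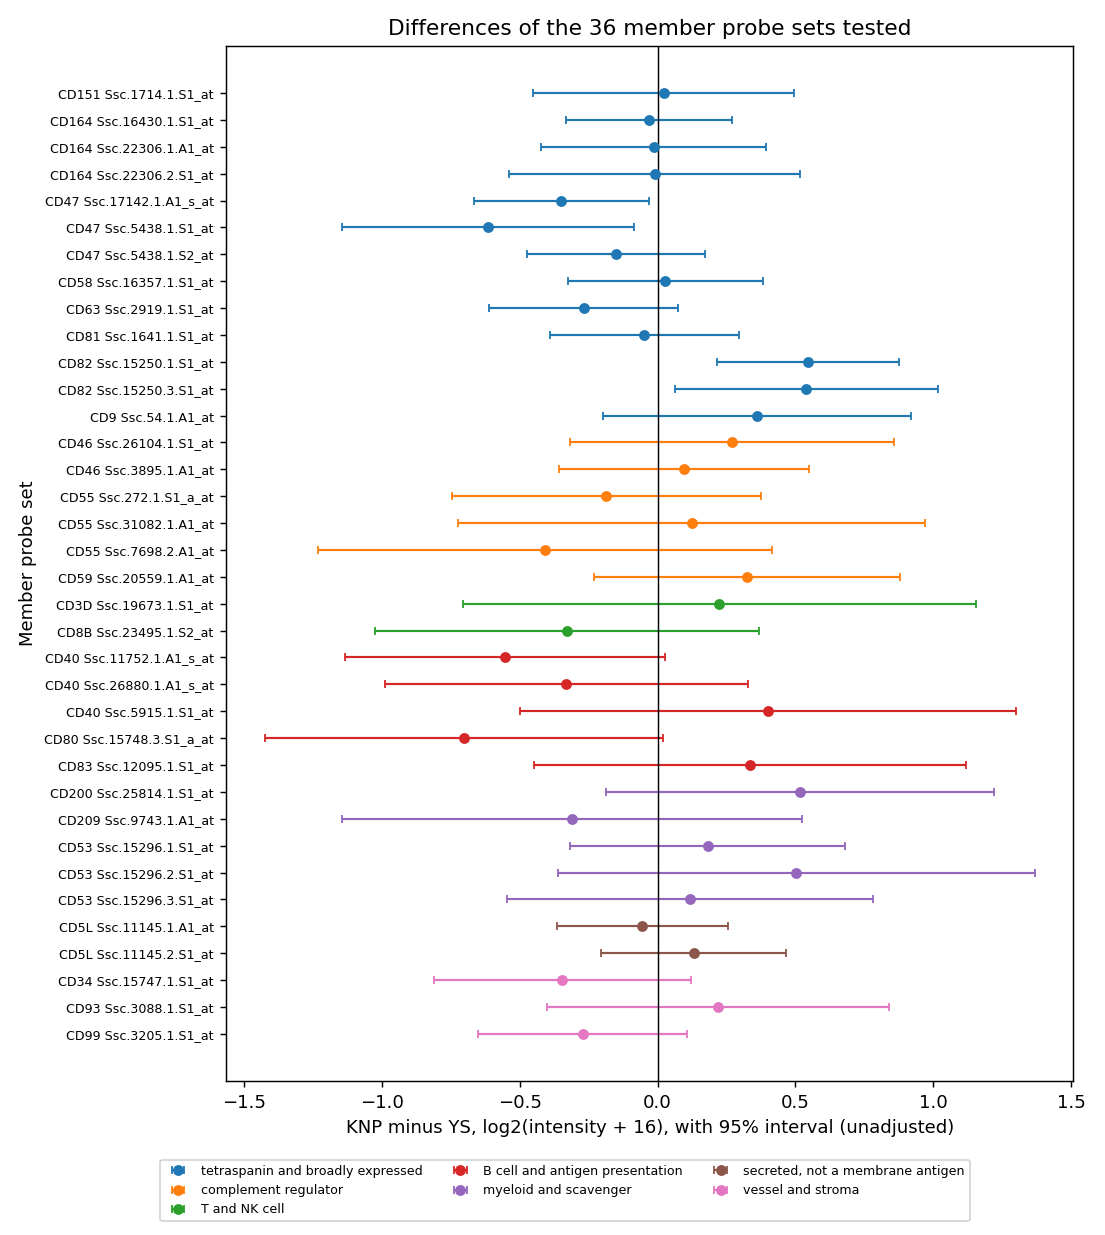
Difference between the breeds (x axis, KNP minus YS in log2 units, bars are unadjusted 95% intervals) for each of the 36 member probe sets tested (y axis), coloured by role group. The intervals of both CD82 probe sets lie above 0 and those of 2 of the 3 CD47 probe sets below 0, and every other interval crosses 0.

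CD82 (KAI1) is a tetraspanin, a membrane protein that gathers integrins and other receptors into patches and is known for restraining the spread of tumour cells. Its brighter probe set was at 962, 959, 1164 and 1000 in the KNP animals 1 to 4 and at 646, 638, 713 and 781 in the YS animals 1 to 4. All KNP values were above all YS values. The means were 1021 ± 97.1 in KNP and 694 ± 66.5 in YS (SD, n = 4 per breed), a difference of 0.55 (SE 0.15, 95% interval 0.22 to 0.88, limma adjusted p = 0.121).

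The other probe set of CD82 was at 805, 552, 428 and 440 in KNP and at 313, 350, 427 and 380 in YS. The groups again did not overlap, but KNP animal 3 lay only just above YS animal 3. The difference was 0.54 (SE 0.22, 95% interval 0.063 to 1.02, limma adjusted p = 0.274), and it was 0.35 without KNP animal 1, the highest of the 8. Both differences thus had nearly the same size and neither passed the test. Over all probe sets tested, 4.01% lay without overlap with KNP above YS and 5.67% with KNP below. Among the members these were 2 (5.56%), both of CD82, and 1 (2.78%), of CD47.

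CD47 is the surface protein that tells macrophages, through their receptor SIRPA, not to engulf the cell. The first of its 3 probe sets was at 2378, 2436, 2293 and 1907 in KNP and at 2967, 3216, 2618 and 2683 in YS. Every KNP animal was below every YS animal. The difference was −0.35 (SE 0.14, 95% interval −0.67 to −0.032, limma adjusted p = 0.286).

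The second probe set of CD47 was at 889, 1100, 742 and 473 in KNP and at 1376, 1268, 969 and 1153 in YS. KNP animal 2 overlapped with YS animal 3, and KNP animal 4 was lowest. The difference was −0.61 (SE 0.24, limma adjusted p = 0.261), and without KNP animal 4 it was −0.39. The third was at 1220, 1088, 1218 and 1422 in KNP and at 1364, 1515, 1246 and 1361 in YS, with overlap and a difference of −0.15 (SE 0.15, limma adjusted p = 0.673). There KNP animal 4 was the highest of its breed, so the probe sets of CD47 did not order the KNP animals alike. SIRPA itself, named here as the receptor of CD47, showed −0.033 (SE 0.23).

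**Figure D2:**
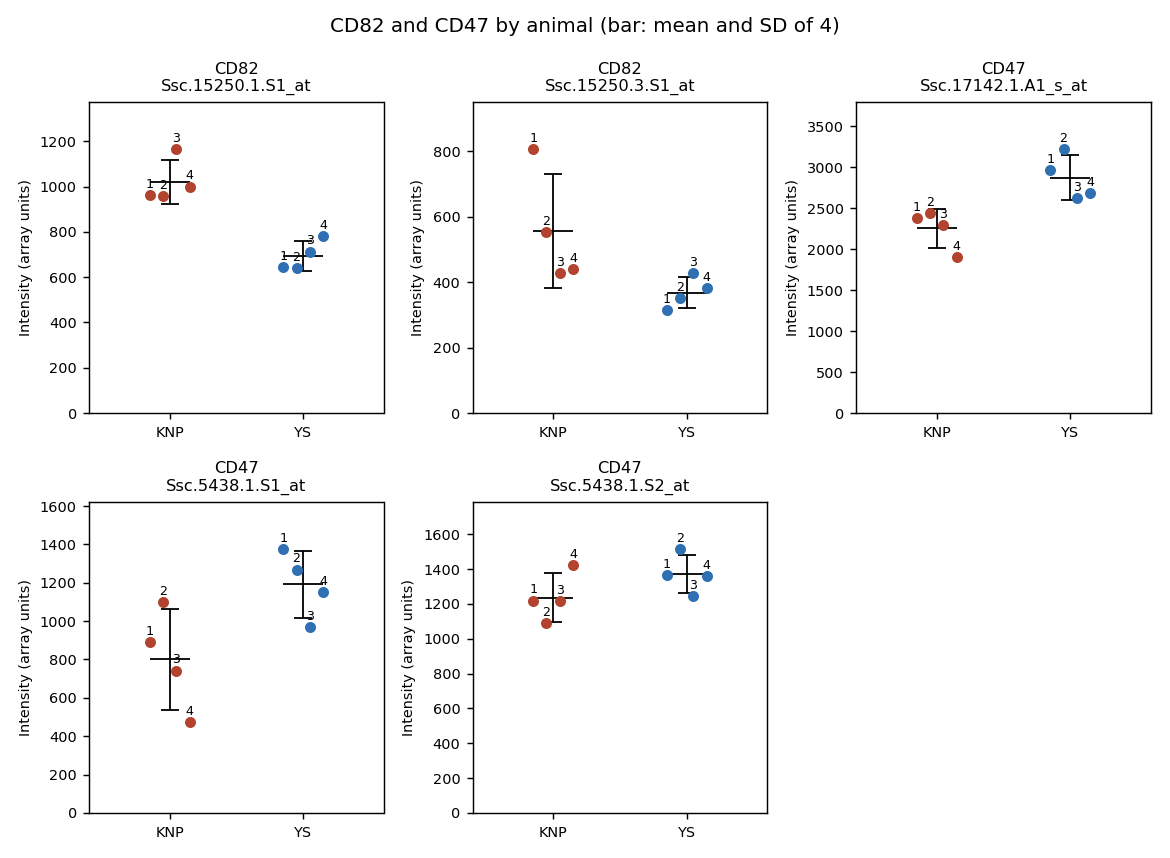
Intensity (y axis, array units, linear from 0) in each animal for the 2 probe sets of CD82 and the 3 of CD47, points numbered by replicate, with the mean and SD of 4 animals per breed. KNP lies above YS without overlap in both CD82 panels and below YS without overlap in 1 panel of CD47, while the other CD47 panels overlap.

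The other tetraspanins that carry CD numbers showed smaller or less even differences. CD9, which takes part in cell adhesion and fusion, was at 497, 1025, 477 and 918 in KNP and at 511, 472, 590 and 563 in YS. KNP animals 2 and 4 stood above all YS animals and KNP animals 1 and 3 lay within the YS range, so the difference of 0.36 had an interval from −0.20 to 0.92 (SE 0.25). CD63, a protein of late endosomes and exosomes, was at 5529, 6533, 5212 and 4260 in KNP and at 5809, 6140, 7331 and 6456 in YS. KNP animal 2 lay above 3 YS animals and the other KNP animals below all of them, with a difference of −0.27 (SE 0.16, limma adjusted p = 0.452).

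CD81, which hepatitis C virus uses to enter human hepatocytes, was at 6539, 7978, 6569 and 5065 in KNP and at 6018, 7543, 6652 and 6557 in YS. The breeds overlapped, and the difference of −0.047 (SE 0.16) had an interval from −0.39 to 0.30, well within a 2-fold change. CD151, a partner of laminin-binding integrins, was at 1047, 1194, 752 and 856 in KNP and at 1030, 1075, 1067 and 640 in YS. YS animal 4 stood apart below the other YS animals, and the difference was 0.022 (SE 0.21).

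Tetraspanins without a CD number in their symbol were read from a list of 22 genes, of which 13 were on the array and 9 tested. None of the 9 was called in either direction, 4 were higher and 0 lower at an unadjusted p under 0.05 (7.07% and 8.06% of all probe sets tested), and their median difference was 0.23, against −0.0086 over all probe sets tested. The brightest of the list were TSPAN3, with 0.48 (SE 0.18, limma adjusted p = 0.240), and TSPAN13, with −0.051 (SE 0.25). TSPAN31, named after its values were seen, was at 3760, 4168, 3722 and 2034 in KNP and at 1954, 1823, 1918 and 1923 in YS. KNP lay above YS without overlap, with KNP animal 4 close to the YS animals. The difference was 0.79 (SE 0.21, limma adjusted p = 0.113), and of all settings and left-out animals tried it was called only without KNP animal 4. KNP also lay above YS without overlap in TSPAN14, likewise named after its values were seen. It was at 727, 585, 1811 and 972 in KNP and at 416, 460, 499 and 477 in YS. Its difference of 0.99 (SE 0.29, limma adjusted p = 0.142) was the highest of the 9.

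CD164 and CD58 differed as little as CD151. The 3 probe sets of CD164, a mucin-like adhesion protein, showed −0.031 (SE 0.14), −0.014 (SE 0.19) and −0.010 (SE 0.24). The first was at 4535, 4894, 5307 and 4512 in KNP and at 5089, 4621, 4318 and 5700 in YS, and the others ran from 1346 to 2309 and from 324 to 598 in KNP and from 1720 to 1998 and from 382 to 611 in YS. CD58, the ligand of the T cell protein CD2, was at 577, 524, 648 and 545 in KNP and at 467, 599, 639 and 551 in YS. The breeds overlapped in both genes, and the intervals ran from −0.33 to 0.27 for this probe set of CD164 and from −0.33 to 0.38 for CD58. These signs are not settled, since the CD164 probe sets turned positive with median centring of the arrays and CD58 turned negative with quantile normalization.

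The complement regulators protect host cells from complement deposited on their surface: CD46 helps to cleave bound C3b and C4b, CD55 breaks up the convertases, and CD59 blocks the membrane attack complex. Of their 10 probe sets 6 were tested and 0 were called. The first probe set of CD46 was at 2180, 1509, 2672 and 1701 in KNP and at 1409, 1933, 2033 and 2066 in YS. KNP held both the highest and the second lowest value, and the difference was 0.096 (SE 0.21, limma adjusted p = 0.861), or −0.050 without KNP animal 3 and −0.031 without YS animal 1. The other tested probe set of CD46 ran from 171 to 363 in KNP and from 142 to 275 in YS (0.27, SE 0.27), and its dim one from 37.1 to 116 and from 23.0 to 174.

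The tested probe set of CD59 was at 777, 651, 787 and 829 in KNP and at 425, 428, 853 and 844 in YS. The YS animals fell apart, with animals 1 and 2 below every KNP animal and animals 3 and 4 above every KNP animal. The SD was 76.8 in KNP and 244 in YS, and the difference was 0.32 (SE 0.25, 95% interval −0.23 to 0.88). The dim probe set of CD59 ran from 59.7 to 117 in KNP, and its YS values were 46.4, 11.6, 118 and 88.9, with YS animals 1 and 2 again below the others.

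CD55 had the most probe sets of any member, 5, of which 3 were tested, and these disagreed in sign. The first was at 176, 129, 194 and 422 in KNP and at 204, 92.4, 239 and 283 in YS (0.12, SE 0.38). The second was at 87.8, 66.9, 102 and 130 in KNP and at 83.0, 73.6, 213 and 211 in YS (−0.41, SE 0.37). In the latter the KNP animals lay with YS animals 1 and 2, and YS animals 3 and 4 stood above all others. The third ran from 110 to 169 in KNP and from 136 to 252 in YS (−0.19, SE 0.26). The dim probe sets ran from 29.2 to 107 in KNP and from 19.4 to 102 in YS, and from 42.5 to 135 and from 17.1 to 84.1.

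Most probe sets of T cell antigens were dim. Of 6 probe sets of 5 genes, only CD3D and CD8B passed the filter on dim probe sets, which left out mean intensities under 97.8 (averaged on the log2 scale). CD3D, a chain of the T cell receptor complex, was at 117, 142, 128 and 89.7 in KNP and at 34.4, 78.4, 203 and 149 in YS. The KNP animals lay between the low YS animals 1 and 2 and the high YS animals 3 and 4, and the difference of 0.22 (SE 0.42) turned to −0.17 without YS animal 1. CD3G, the gene next to CD3D in the pig gene table, was dim and ran from 68.4 to 110 in KNP, and its YS values were 68.1, 73.2, 161 and 111.

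CD8B, the beta chain of the co-receptor of killer T cells, was at 142, 176, 131 and 183 in KNP and at 226, 93.6, 301 and 247 in YS. YS animal 2 was below all KNP animals and the other YS animals above them. The difference was −0.33 (SE 0.32, limma adjusted p = 0.666). CD8A, the alpha chain and not a member, showed 0.51 (SE 0.35, limma adjusted p = 0.532), so the means of the chains leaned opposite ways and neither passed; whether they differ from each other was not tested.

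CD4, which marks helper T cells, was dim with both probe sets: the first ran from 17.9 to 112 in KNP and from 14.9 to 120 in YS, and the second from 3.82 to 21.0 and from 11.9 to 77.3. CD27, a co-stimulatory receptor of lymphocytes, ran from 9.29 to 88.5 in KNP and from 9.89 to 50.1 in YS. These probe sets had low means, and the first of CD4 reached 112 in KNP animal 4 and 120 in YS animal 3. Of 8 other T and NK cell markers on the array 7 were tested, all 7 had a higher mean in KNP and 0 were called. At an unadjusted p under 0.05, 3 were higher and 0 lower (7.07% and 8.06% of all probe sets tested). The dim one, PRF1, had a lower mean in KNP, 12.3 against 28.9 in YS. The median difference of the 7 was 0.51. The summed intensity of the list ran from 1972 to 3215 in KNP and from 1255 to 2081 in YS. CD247, named after its values were seen, had the largest difference of the 7 (1.44, SE 0.42, limma adjusted p = 0.133). It entered the sum with 312, 1306, 642 and 421 in KNP and 265, 109, 304 and 186 in YS. Of 11 genes of lymphocyte antigen receptor signalling on the array 8 were tested and 0 were called, with a median of 0.084. Their brightest were LYN, a kinase of B cell and myeloid receptors (0.69, SE 0.23, limma adjusted p = 0.184), and LCP2, an adaptor of the T cell receptor (0.38, SE 0.23).

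**Figure D3:**
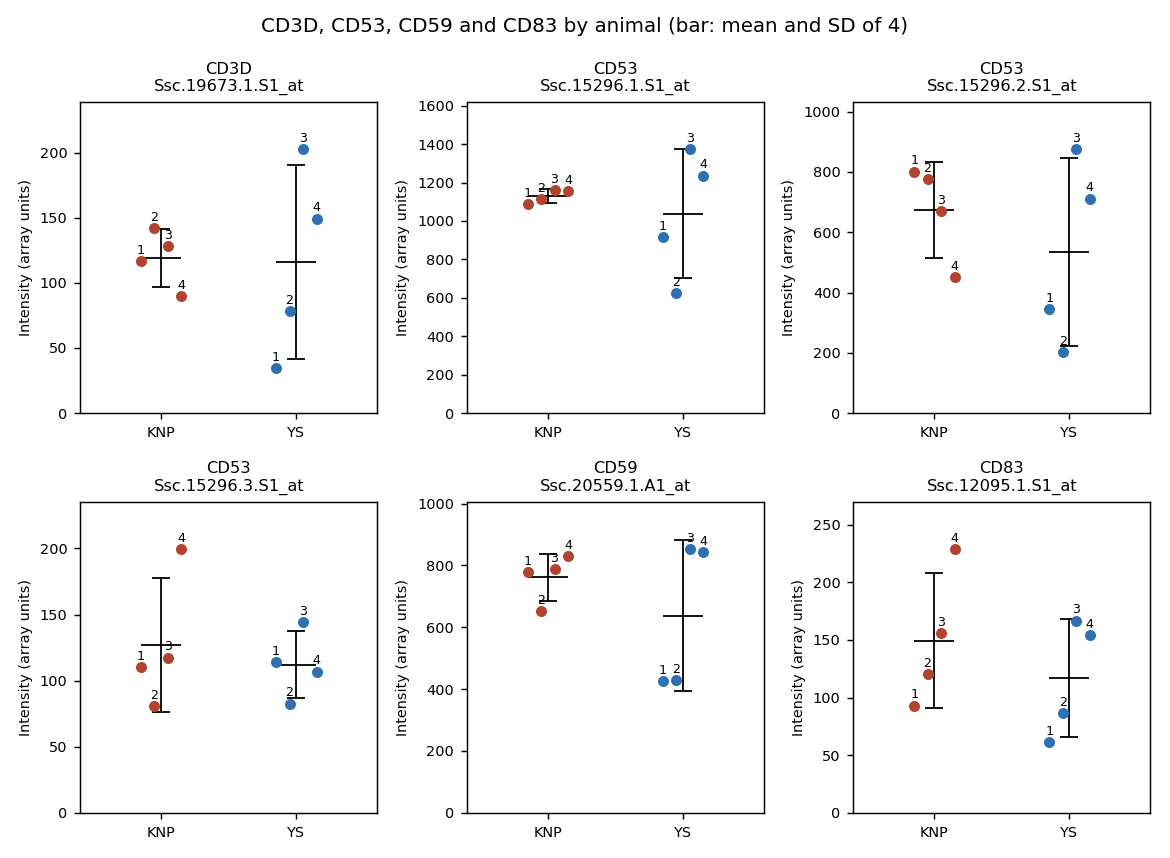
Intensity (y axis, array units, linear from 0) of CD3D, the 3 probe sets of CD53, CD59 and CD83 in each animal, points numbered by replicate, with the mean and SD of 4 animals per breed. In CD3D, CD59, CD83 and 2 of the 3 CD53 panels YS animals 1 and 2 lie below YS animals 3 and 4, and in all 6 panels the breeds overlap.

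Among antigens of B cells and antigen presentation, 5 of 12 probe sets were tested and 0 were called. CD80, a ligand that co-stimulates T cells through CD28, was at 55.6, 68.0, 143 and 122 in KNP and at 229, 115, 139 and 169 in YS. KNP animals 1 and 2 were below all YS animals and KNP animals 3 and 4 within their range. The difference of −0.70 was the lowest of the members, with an SE of 0.33 and an interval from −1.42 to 0.021 (limma adjusted p = 0.345). Its other probe set was dim, from 10.8 to 40.2 in KNP and from 2.60 to 47.7 in YS.

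CD40, the receptor through which T cells activate B cells and macrophages, had 3 tested probe sets that did not agree. The first was at 75.8, 134, 105 and 143 in KNP and at 177, 155, 137 and 228 in YS (−0.55, SE 0.26, limma adjusted p = 0.355), with overlap between KNP animal 4 and YS animal 3. The second was at 124, 131, 102 and 81.9 in KNP and at 157, 101, 230 and 104 in YS (−0.33, SE 0.30). The third was at 208, 200, 147 and 92.1 in KNP and at 112, 120, 240 and 46.7 in YS, with a difference of 0.40 (SE 0.41). The animals were ordered differently in these probe sets: YS animal 4 was highest in the first and lowest in the third.

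CD83, a marker of mature dendritic cells, was at 93.0, 121, 156 and 229 in KNP and at 61.5, 86.4, 167 and 154 in YS (0.34, SE 0.36). Its other probe set was dim, at 14.8, 35.5, 46.2 and 4.98 in KNP and at 71.8, 108, 113 and 108 in YS, and is given here because its values were seen to lie without overlap. In this probe set all KNP animals were below all YS animals, opposite to the means of the brighter one, and all of its values were below the median of their arrays. Fitted without the filter on dim probe sets, its difference was −1.60 (limma adjusted p = 0.134).

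The remaining antigens of this group were dim in every probe set. CD86, the partner of CD80, ran from 11.8 to 169 in KNP and from 18.9 to 84.9 in YS. CD79B, a signalling chain of the B cell receptor, ran from 2.56 to 76.9 in KNP and from 3.12 to 66.1 in YS. CD38, an enzyme that consumes NAD, ran from 28.5 to 78.0 and from 46.5 to 150, CD180, a Toll-like receptor relative of B cells, from 14.3 to 54.7 and from 5.58 to 17.5, and CD1E, which handles lipid antigens, from 22.2 to 72.4 and from 4.20 to 65.7. Fitted without the filter on dim probe sets none of these was called. CD180 had the smallest p among them, with a difference of 0.88 (limma adjusted p = 0.33). Of the other B and plasma cell markers only JCHAIN, the joining chain of secreted antibodies, was tested, at 2818 ± 662 in KNP and 1634 ± 744 in YS (SD, n = 4 per breed, difference 0.85, SE 0.30, limma adjusted p = 0.214). TNFRSF17, dim and left out of the test, had a lower mean in KNP than in YS. It ran from 11.1 to 19.3 in KNP and from 17.9 to 108 in YS.

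Of the antigens of myeloid and other leukocytes 5 of 8 probe sets were tested and 0 were called. CD53 is a tetraspanin found on leukocytes and not on hepatocytes. Its first probe set was at 1087, 1113, 1159 and 1157 in KNP and at 916, 623, 1373 and 1236 in YS. The KNP animals lay close to each other, between the low YS animals 1 and 2 and the high YS animals 3 and 4, with SDs of 35.2 and 336. The difference was 0.18 (SE 0.23), and −0.037 without YS animal 2. The second was at 801, 776, 669 and 452 in KNP and at 346, 203, 875 and 712 in YS (0.50, SE 0.39), or 0.13 without YS animal 2. The YS animals kept the same order in both. The third ran from 80.6 to 200 in KNP and from 82.7 to 144 in YS (0.12, SE 0.30).

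CD200, a ligand that restrains macrophages, was at 160, 168, 105 and 83.7 in KNP and at 66.9, 62.7, 82.2 and 130 in YS. YS animal 4 was the only YS animal within the KNP range. The difference was 0.52 (SE 0.32, limma adjusted p = 0.485). CD209, a lectin of dendritic cells and macrophages, ran from 48.4 to 153 in KNP and from 73.6 to 198 in YS (−0.31, SE 0.38). CD69, an early activation antigen of lymphocytes, and both probe sets of CD300C, a receptor of monocytes, were dim: CD69 ran from 27.5 to 131 in KNP and from 72.9 to 162 in YS, and CD300C from 6.86 to 94.6 and from 7.38 to 100.3.

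CD5L, the protein secreted by macrophages, was at 8493, 8088, 8065 and 10003 in KNP and at 10369, 9121, 7462 and 9158 in YS with the first probe set. Its second probe set was at 7078, 5615, 5030 and 4721 in KNP and at 5439, 5354, 4650 and 4849 in YS. The breeds overlapped in both. The differences were −0.055 (SE 0.14, 95% interval −0.36 to 0.25) and 0.13 (SE 0.15, 95% interval −0.21 to 0.47), and the first turned to 0.026 with quantile normalization and 0.020 with median centring. Of 8 macrophage markers on the array, CD14 and CD163 among them, 6 were tested, all 6 had a higher mean in KNP and 0 were called. In all 6, YS animals 1 and 2 lay below YS animals 3 and 4, as in CD59, CD3D and the first and second probe sets of CD53. This order was noticed in the values and was not counted over all probe sets. C1QC, a chain of complement C1q, was at 7011, 8266, 8167 and 5701 in KNP and at 3110, 3084, 7451 and 6571 in YS. YS animals 3 and 4 lay within the KNP range there, and YS animals 1 and 2 below it. The median of the 6 was 0.44 and the summed intensity of the list ran from 16380 to 22330 in KNP and from 9314 to 20060 in YS. The dim ones, MARCO and SIGLEC1, had lower means in KNP. These were 83.8 in KNP and 92.0 in YS for MARCO, and 6.28 and 20.0 for SIGLEC1. Of 6 neutrophil markers 5 were tested, 3 had a higher mean in KNP and 2 a lower one, and 0 were called. The median of the 5 was 0.88. The dim one, S100A12, had a lower mean in KNP, 70.6 against 129 in YS. At an unadjusted p under 0.05, 3 were higher and 0 lower (7.07% and 8.06% of all probe sets tested). The summed intensity of the list ran from 552 to 1750 in KNP and from 453 to 805 in YS. The part of cell numbers in the values of the leukocyte antigens was not tested.

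Antigens of vessels and stroma showed no called difference in their 3 tested probe sets. CD34, a sialomucin of endothelium and of blood progenitors, was at 220, 261, 236 and 256 in KNP and at 318, 302, 442 and 224 in YS. YS animal 4 lay among the KNP animals and the other YS animals above them, and the difference was −0.35 (SE 0.21, limma adjusted p = 0.481), or −0.50 without YS animal 4. CD93, a lectin-like receptor of endothelium, was at 226, 155, 210 and 278 in KNP and at 204, 101, 249 and 200 in YS (0.22, SE 0.28). Its dim probe set ran from 6.42 to 21.3 in KNP and from 8.31 to 20.6 in YS.

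CD99, through which leukocytes pass the vessel wall, was at 899, 1219, 851 and 1145 in KNP and at 1298, 1031, 1245 and 1372 in YS. KNP animals 1 and 3 were below all YS animals, and the difference was −0.27 (SE 0.17, 95% interval −0.65 to 0.11, limma adjusted p = 0.498). Of 10 endothelial markers on the array 9 were tested. Of these 1 was called higher, RAMP2, a part of the adrenomedullin receptor (1.24, SE 0.17, limma adjusted p = 0.019), and 0 lower. Over all probe sets tested 0.424% were called higher and 0.611% lower. A higher mean in KNP was found in 6 of the 9, and the median was 0.21. The dim one, KDR, had a lower mean in KNP, 68.5 against 118 in YS. The summed intensity of the list, RAMP2 included, ran from 4960 to 6494 in KNP and from 4168 to 5879 in YS. Of 7 tested markers of stellate cells and fibroblasts 0 were called, with a summed intensity from 4297 to 10610 in KNP and from 5836 to 8988 in YS. Their part in the values of these antigens was not tested. The means of CD34 and CD93 leaned opposite ways and neither passed.

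CD antigens under other symbols were read from a list of 65 genes, of which 48 were on the array and 36 tested. The test called 1 of the 36 higher and 0 lower, against 0.424% and 0.611% of all probe sets tested. At an unadjusted p under 0.05, 6 were higher and 3 lower (7.07% and 8.06% of all probe sets tested). The median of the 36 was 0.074. The gene called, FCER1G, is the signalling chain that Fc receptors share and has itself no CD number. It was at 556 ± 80.0 in KNP and 283 ± 39.7 in YS (SD, n = 4 per breed, difference 0.93, SE 0.18, limma adjusted p = 0.0384, higher in 4 of 4 KNP animals than in every YS animal). The call was lost with quantile normalization (0.91, limma adjusted p = 0.0701) and without the filter, without the intensity trend (limma adjusted p = 0.0757 and 0.0762) and when any animal other than KNP animal 2 was left out, with limma adjusted p from 0.0658 to 0.117. The brightest of the list were the lysosomal membrane proteins LAMP1, with −0.25 (SE 0.12), and LAMP2, with −0.068 (SE 0.20), and neither passed.

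Across the members YS animals 2 and 3 were most often the extremes. YS animal 2 was the lowest of the 8 arrays in 9 of 36 tested member probe sets (25%) and YS animal 3 the highest in 12 (33.3%), against 13.9% and 14.0% of all probe sets tested. KNP animal 4 was the lowest in 7 (19.4%, against 10.6% of all probe sets tested). Among these were CD63, CD81, 2 of the 3 CD164 probe sets and 2 of the 3 CD47 probe sets. No animal was the highest or the lowest throughout. Probe sets of a gene share that gene and are not independent counts.

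**Figure D4:**
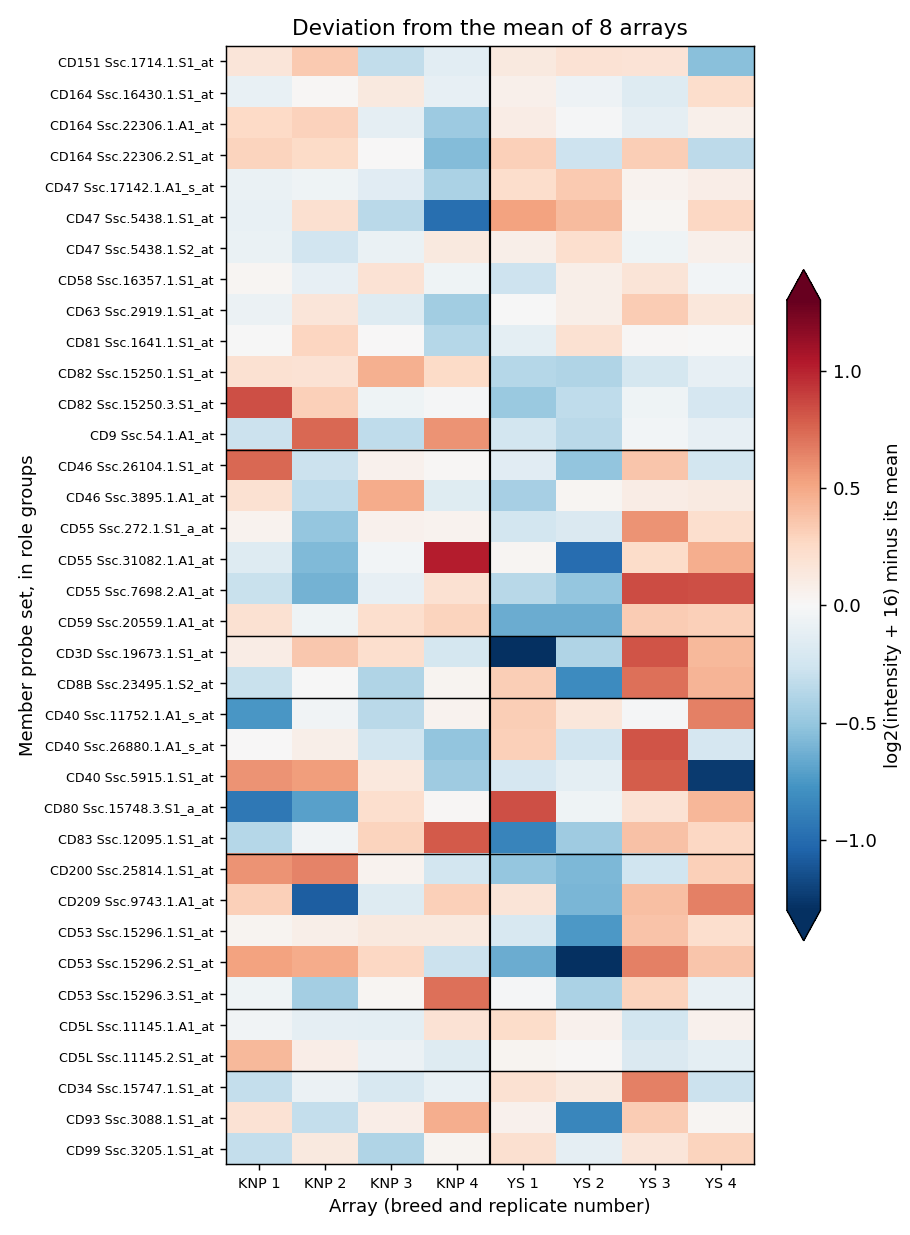
Deviation of each array (columns, 4 KNP then 4 YS) from the mean of its probe set over 8 arrays, in log2(intensity + 16), for the 36 member probe sets tested (rows, in role groups set apart by lines), red above and blue below the mean. The CD82 rows are mostly red in KNP and blue in YS, and in the CD3D, CD59 and first CD53 rows YS 1 and YS 2 are blue and YS 3 and YS 4 red.

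Of the 33 genes, 14 had several probe sets and 8 of these had more than 1 tested. All tested probe sets leaned the same way in 5 of the 8, CD46, CD47, CD53, CD82 and CD164, and both ways in CD40, CD55 and CD5L. The 19 dim probe sets had mean intensities from 13.0 to 106, and only 2 of their 152 values reached the median of their array. The members just above the filter limit were CD200 and CD3D, with mean intensities (averaged on the log2 scale) of 102 and 108, and those just below it CD69 and CD3G, with 97.3 and 91.7. Without the filter all 55 were tested and 0 were called.

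**Figure D5:**
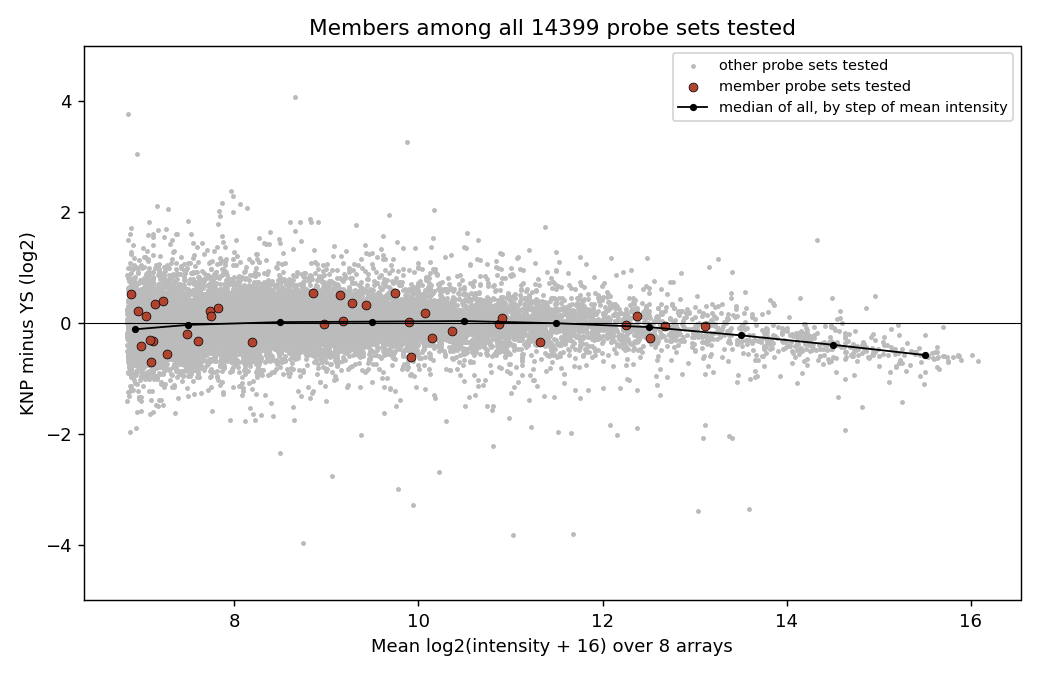
Difference between the breeds (y axis, KNP minus YS, log2) against mean log2(intensity + 16) over 8 arrays (x axis) for the 14399 probe sets tested, with the 36 members in red and the median of all probe sets per step of mean intensity as a black line. The members lie between −0.70 and 0.55, inside the cloud of the other probe sets, and none lies above a mean of 14, where the line falls to −0.39 and below.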

How the data were processed

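Liver RNA of 8 pigs, 4 per breed, was measured on 1 array each. The authors deposited linear intensity values, 1 per probe set; the submitters' processing notes name GCOS 1.3. On each array the mean between percentiles 2 and 98 was 500.1, which shows that arrays were scaled. The signal algorithm was not given in the sources used here. With 4 arrays per breed, their number limits precision.

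Of 24123 probe sets 124 controls were left out. Values were taken as log2(intensity + 16), the lower 40% by mean over 8 arrays were left out, and 14399 were fitted with limma 3.58.1 in R 4.3.3 (lmFit, eBayes with intensity trend, two-sided, breed as the only term). The same fit was tested on simulated data. It called 1 of 50 changes of 1.5-fold, 27 of 50 of 2-fold, 41 of 50 of 4-fold and 46 of 50 of 8-fold. There were 4 calls of other probe sets. In such data a 1.5-fold change was thus seldom called. Genes were named from the array annotation, by probe sets with 1 symbol. In gene lists a gene counts once, by its brightest probe set.

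Given by animal are members that passed, that did not overlap, with the 10 smallest p or brightest in their role group, and probe sets of these genes that are dim or of opposite sign; others were added. From partner lists the called genes and the brightest pair are named. CD5L was set apart after its name was seen. The members and lists were chosen with earlier results of these data known. Alternatives were no filter, a filter on the lower 60%, pseudocounts of 1 and 64, median centring, quantile normalization, a fit without the trend, a replicate block and each animal left out. Replicate numbers name different animals.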

Additional observations from a re-analysis of the deposited data

Results flagged for a closer look

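In 5 of 110 groups of 4 animals (55 probe sets in each breed) 1 animal stood apart from the other 3 by more than Dixon's 95% critical value for the gap over the range; chance flags about 1 in 20 groups. CD151 was at 640 in YS animal 4, against 1030 to 1070 in the others. The third tested probe set of CD55 was at 110 in KNP animal 2, against 168 to 169. The other 3 were dim: CD1E at 65.7 in YS animal 2, against 4.20 to 6.07, the second probe set of CD4 at 77.3 in YS animal 2, against 11.9 to 18.0, and the dim probe set of CD83 at 71.8 in YS animal 1, against 108 to 113.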

How the results depend on the processing

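No member probe set was called under the 8 other settings or with any 1 animal left out, so the counts of members called higher and lower stayed 0 to 0; the smallest adjusted p was 0.0883 (CD82, lower 60% left out). Over all probe sets 61 were called higher and 88 lower, against 10 and 4 with quantile normalization, 24 and 11 without the filter, 8 and 5 without the trend, 6 and 2 with the replicate block, and 38 lower with median centring. With 1 animal left out they were 5 to 49 and 3 to 80, the fewest without YS animal 3. Partner genes called numbered 1, against 0 with quantile normalization, without the filter, without the trend or with the replicate block, and 0 to 1 with 1 animal left out (FCER1G without KNP animal 2, and a different gene, TSPAN31, without KNP animal 4). Same-numbered animals had correlations of deviations from −0.020 to 0.051, so the numbers pair nothing; the block changed no call of a member.

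Of 36 member differences 23 kept their sign throughout. With quantile normalization CD151 turned to −0.030, CD58 to −0.0085 and the first CD5L probe set to 0.026; with median centring CD164 turned to 0.045, 0.062 and 0.066, this CD5L probe set to 0.020 and CD81 to 0.028. With 1 animal left out, signs turned within −0.16 to 0.13 for CD151, −0.092 to 0.041, −0.12 to 0.14 and −0.12 to 0.18 for CD164, −0.17 to 0.54 for CD3D, −0.050 to 0.22 for CD46 (the first probe set), −0.037 to 0.34 and −0.10 to 0.28 for CD53 (the first and the third), −0.20 to 0.34 for CD55 (the first), −0.056 to 0.090 for CD58, −0.14 to 0.014 for CD5L (the first), −0.15 to 0.069 for CD81 and −0.027 to 0.36 for CD93. The causes were not tested. The 19 dim probe sets limit what can be said of T and B cell antigens.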
